A study of Mus musculus with 11 samples.

Results

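Acetylation of histone H3 at lysine 27 (H3K27ac) was measured by CUT&RUN in atrial cardiomyocyte nuclei, and 387 of the 1652 deposited regions gained the mark at places where the control libraries held almost no reads. These regions, called near-empty gains here, were chosen by the measured values themselves. The mean of the *Tbx5*G125R/+ libraries had to exceed the mean of the control libraries, and the control mean had to lie under 1 normalised read in the most significant 500-bp bin of the region (the top bin). A normalised read is a read divided by the size factor of its library, and a control mean under 1 amounted here to 0 to 7 reads over all 5 control libraries. The remaining regions were 952 other increased regions, with more control signal, and 313 decreased regions. Because the rule used the levels in both genotypes, those levels are given below as a description, and no test is read from them.

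The 6 *Tbx5*G125R/+ libraries came from mice with 1 *Tbx5* allele carrying the G125R missense change, made with CRISPR-Cas9, and the 5 control libraries came from control mice. All mice were 8 to 12 weeks old, left and right atria were pooled, and the nuclei of both genotypes were selected by sorting for PCM1 (pericentriolar material 1), which surrounds the nucleus in cardiac muscle cells and so marks them. The methods count the libraries as separate mice, and their sex is not given in the labels. The comparison asked how the change in Tbx5 alters the activity of regulatory elements in these cells.

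Tbx5 is a T-box transcription factor that atrial cardiomyocytes need for their identity and rhythm, and it acts with factors such as Gata4 and Nkx2-5 at shared enhancers. H3K27ac marks active enhancers and promoters and is deposited by the acetyltransferases p300 and CBP. CUT&RUN uses an antibody to direct a nuclease to chromatin that carries the mark. The nuclease releases short fragments with little background, so that an unmarked bin often holds no read at all.

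Few near-empty gains, and few listed regions of any class, lay at listed promoters. The top bin came within 1 kb of a listed protein-coding start site in 22 of 374 near-empty gains (5.88%), against 82 of 920 other increased regions (8.91%) and 7 of 292 decreased regions (2.40%). The other regions lie on a chromosome whose promoters were not analysed here. The list of starts also lacked some genes of the other chromosomes, *Gdf6* among them. Regions at such genes stay in these totals, so each share can be an undercount. In 4 near-empty gains the top bin overlapped the window from 250 bases before to 50 bases after a listed protein-coding start. These lay at *Cd37*, *Kcnk2*, *Mov10l1* and *Dlg2*. The windows of these genes are printed because all or part of each lay within a gained bin. The overlap was 300 bases at *Cd37*, 197 at *Kcnk2*, 43 at *Mov10l1* and 31 at *Dlg2*. The windows of *Dnajb11*, *Dph7* and *Ddr2* are printed because these were the near-empty gains with the highest *Tbx5*G125R/+ level among those within 1 kb of a start. All windows are RefSeq sequence of build GRCm38.p6 (mm10), 300 bases long and written 5′ to 3′ along the gene. Capitals mark every match, on either strand, to the short motifs named after them.

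Cd37, chr7:45238790-45239089, minus strand: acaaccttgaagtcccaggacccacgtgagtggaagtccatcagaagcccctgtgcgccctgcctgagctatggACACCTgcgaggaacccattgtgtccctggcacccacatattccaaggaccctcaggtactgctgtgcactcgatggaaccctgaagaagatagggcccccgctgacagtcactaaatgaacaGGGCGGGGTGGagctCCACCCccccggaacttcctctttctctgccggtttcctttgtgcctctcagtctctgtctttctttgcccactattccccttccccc

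Kcnk2, chr1:189343304-189343603, minus strand: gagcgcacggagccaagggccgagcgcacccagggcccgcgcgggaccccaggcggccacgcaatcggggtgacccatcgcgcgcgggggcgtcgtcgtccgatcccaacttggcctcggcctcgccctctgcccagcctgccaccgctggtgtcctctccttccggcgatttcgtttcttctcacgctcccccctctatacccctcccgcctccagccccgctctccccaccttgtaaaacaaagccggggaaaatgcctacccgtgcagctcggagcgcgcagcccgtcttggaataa

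Mov10l1, chr15:88982744-88983043, plus strand: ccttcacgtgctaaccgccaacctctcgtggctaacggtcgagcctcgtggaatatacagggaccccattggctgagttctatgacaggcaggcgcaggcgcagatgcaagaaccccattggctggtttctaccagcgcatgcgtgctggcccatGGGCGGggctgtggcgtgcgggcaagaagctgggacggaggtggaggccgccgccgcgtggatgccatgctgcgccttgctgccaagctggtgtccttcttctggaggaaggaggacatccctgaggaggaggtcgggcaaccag

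Dlg2, chr7:92234720-92235019, plus strand: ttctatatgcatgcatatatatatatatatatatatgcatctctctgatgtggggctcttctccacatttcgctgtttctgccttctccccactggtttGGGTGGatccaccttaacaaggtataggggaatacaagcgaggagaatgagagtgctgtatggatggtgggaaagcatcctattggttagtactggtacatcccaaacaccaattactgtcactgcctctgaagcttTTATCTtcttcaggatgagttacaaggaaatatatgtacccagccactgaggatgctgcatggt

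Dnajb11, chr16:22857595-22857894, plus strand: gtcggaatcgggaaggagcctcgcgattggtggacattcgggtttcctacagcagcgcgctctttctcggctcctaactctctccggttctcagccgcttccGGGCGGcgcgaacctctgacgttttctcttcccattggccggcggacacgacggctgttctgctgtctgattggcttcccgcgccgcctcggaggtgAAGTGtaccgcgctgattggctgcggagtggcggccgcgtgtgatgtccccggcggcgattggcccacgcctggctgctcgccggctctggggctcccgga

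Dph7, chr2:24962172-24962471, plus strand: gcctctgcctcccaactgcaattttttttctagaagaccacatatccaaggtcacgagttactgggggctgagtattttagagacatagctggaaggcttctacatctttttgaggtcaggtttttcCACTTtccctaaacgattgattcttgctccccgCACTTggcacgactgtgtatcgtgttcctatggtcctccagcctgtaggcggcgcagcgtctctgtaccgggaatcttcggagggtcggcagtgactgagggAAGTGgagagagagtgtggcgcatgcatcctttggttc

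Ddr2, chr1:170088895-170089194, minus strand: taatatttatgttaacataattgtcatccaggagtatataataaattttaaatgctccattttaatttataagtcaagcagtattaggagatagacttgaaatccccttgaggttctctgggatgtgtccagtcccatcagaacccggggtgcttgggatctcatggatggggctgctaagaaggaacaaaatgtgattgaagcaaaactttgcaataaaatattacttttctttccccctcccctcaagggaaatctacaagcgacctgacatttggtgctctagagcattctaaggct

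The motifs searched were AGGTGT and, overlapping it, GGTGTGA for T-box factors, TATTTTTA for MEF2, GGGCGG (the GC box) for SP and KLF factors, CCACCC (the CACCC box) for KLF factors, CAGCTG for E-box factors, AGATAA for GATA factors, TGANTCA for AP-1, GGAATG for TEAD factors and AAGTG for NKX2-5. In the *Cd37* window, the letters ACACCT are AGGTGT on the other strand, and it also held a GC box and 2 CACCC boxes. AGGTGT was present in 13.7% of all 32851 promoter windows of the same length, GGGCGG in 35.7% and CCACCC in 31.5%. The printed *Kcnk2* window held none of the motifs and the *Mov10l1* window a GC box. The *Dlg2* window held a CACCC box and an AGATAA, which 11.2% of all windows held. The matches of *Mov10l1* and *Dlg2* lay in the part of the window outside the top bin. Another *Kcnk2* window, with its start 207 bases from the top bin, held a GC box, a CACCC box and CAGCTG. A further *Kcnk2* window, with its start 692 bases away, held CAGCTG and TGANTCA. The *Dnajb11* window held a GC box and 1 AAGTG, and the *Dph7* window 3 matches to AAGTG, a word that was present in 46.4% of all windows. The *Ddr2* window held no match. A match is a match of letters only. GC content was 68.7% in the *Kcnk2* window, 63.3% in that of *Mov10l1*, 57.7% in that of *Cd37* and 43.0% in that of *Dlg2*, with a median of 52.7% over all windows.

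The gained bins at these promoters had moderate levels. *Cd37*, a tetraspanin of leukocytes, had its whole window inside the top bin (region chr7:45238251-45239250). Its *Tbx5*G125R/+ libraries held 6.78 to 27.4 normalised reads with a median of 21.3, whereas 4 of the control libraries held 0 and control replicate 2 held 4.77. At *Kcnk2*, the mechanosensitive two-pore potassium channel TREK-1, 197 bases of the window lay in the top bin of chr1:189342751-189344000. The *Tbx5*G125R/+ libraries there ranged from 5.74 to 29.0 with a median of 16.6, and all 5 control libraries had 0 reads. Both genes showed every *Tbx5*G125R/+ library above every control library. *Mov10l1*, a helicase of the piRNA pathway in germ cells, did not: its *Tbx5*G125R/+ libraries ran from 3.65 to 35.0 (median 21.1) and control replicate 5 reached 3.90, with 0 in the other control libraries. Near a listed start of *Dlg2*, a scaffold protein of synapses, 1 library stood above the others. The top bin lay inside the gene, 220 bases from that start, and the gene has other listed starts. Replicate 5 held 72.2 normalised reads, the other *Tbx5*G125R/+ libraries had a mean of 11.8 without it, and the control libraries held 0, 2.04, 2.25, 0 and 0.

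The 3 genes printed for their level, whose promoter lay near but not in the top bin, had higher means. They were picked for that, so the difference is not read as a result. *Dnajb11*, a co-chaperone of the endoplasmic reticulum, had 29.3 ± 16.8 normalised reads in *Tbx5*G125R/+ libraries (SD, n = 6) and 0.963 in controls. *Dph7*, an enzyme of diphthamide synthesis on elongation factor 2, had 29.3 ± 12.6 in *Tbx5*G125R/+ libraries and 0.225 in controls, where 1 read was found in all. *Ddr2*, a collagen receptor that is used as a fibroblast marker, ranged from 6.36 to 76.6 in *Tbx5*G125R/+ libraries (median 16.6) and had a control mean of 0.136, again with 1 read. Without *Tbx5*G125R/+ replicate 5, which held the 76.6, its mean was 17.1. The other promoter-proximal near-empty gains with the highest levels lay at *Fermt3* and *Stip1*, where the region overlapped both genes (mean 21.2 in *Tbx5*G125R/+ and 0.361 in controls), at *Acad12* (20.9 and 0.954), at *Obi1* (19.3 and 0) and at *Nfatc2* (18.5 and 0.852). *Fermt3* encodes kindlin-3, an integrin activator of blood cells, and *Nfatc2* a transcription factor that calcineurin activates. *Obi1* was without a read in *Tbx5*G125R/+ replicate 5, so that its genotypes overlapped.

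Across all near-empty gains, the *Tbx5*G125R/+ level was low and narrow in range. The median over the regions of the mean of the 6 libraries was 18.9 normalised reads, with the middle of the distribution between 16.6 and 21.7 (interquartile range) and extremes of 12.8 and 83.2. The control mean had a median of 0.409 (0 to 0.995). Other increased regions had a median of 40.1 in *Tbx5*G125R/+ libraries and 4.25 in controls. Near-empty gains made up all 27 increased regions under 15 normalised reads in *Tbx5*G125R/+ libraries and 85.5% of the 234 between 15 and 20. Their share was 42.4% between 20 and 25 and 15.2% between 25 and 30, and none of the 138 increased regions at 100 or more belonged to them. The table lists only regions that the authors called, so these shares depend on that call too.

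**Figure D1:**
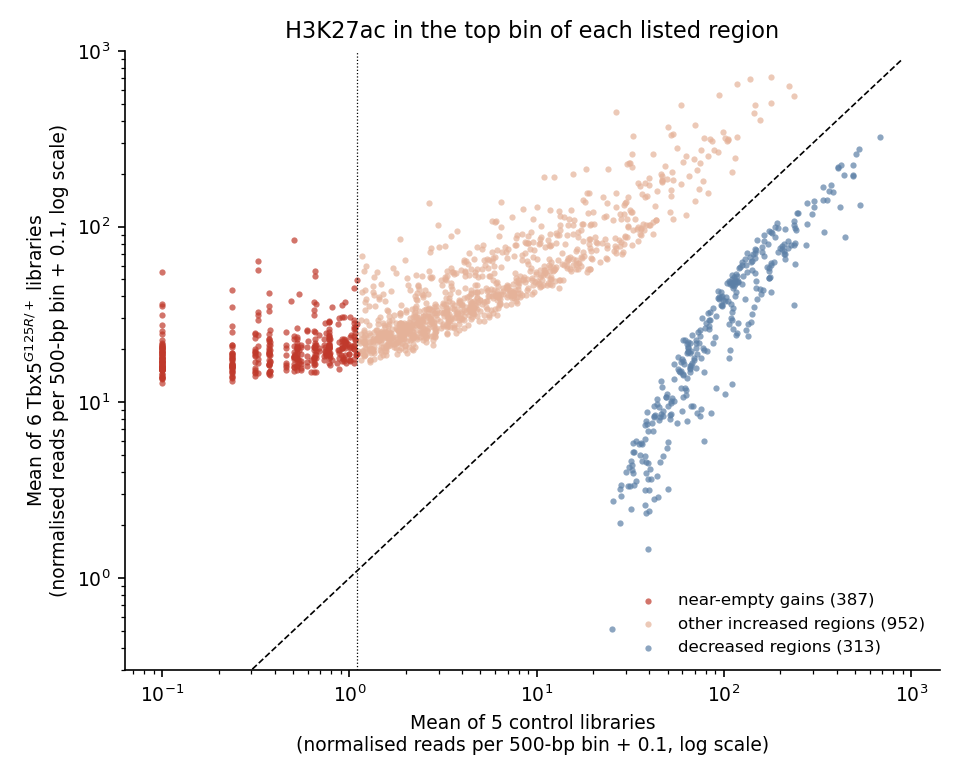
Each point is a listed region, with the mean level in the 6 *Tbx5*G125R/+ libraries on the vertical axis and in the 5 control libraries on the horizontal axis (normalised reads in the top bin plus 0.1, both axes logarithmic; dashed line, equal levels; dotted line, the control limit of 1). The 387 near-empty gains lie left of the dotted line in a band from 12.8 to 83.2 on the vertical axis, below most of the 952 other increased regions.

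The control side held few reads. In the 387 top bins there were 69837 reads in the 6 *Tbx5*G125R/+ libraries and 872 reads in the 5 control libraries. No control read was found in 81 near-empty gains (20.9%), 1 to 3 control reads in 215 (55.6%) and 4 to 7 in 91 (23.5%). The median *Tbx5*G125R/+ level was 17.1 in those without a control read, 18.7 in those with 1 to 3 and 20.9 in those with 4 to 7. A control count of 0 allows up to 3 reads over the group, or a level of 0.662. Against that floor the 81 regions were at least 19.4-fold to at least 78.6-fold higher in *Tbx5*G125R/+ libraries, on the linear scale of pooled reads over summed size factors. For the 91 regions with 4 to 7 control reads the same ratio had a median of 19.1 (11.6 to 44.1). Both this floor and the intervals below account for counting error alone, because PCR copies of a fragment are not separate molecules.

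The control reads came mostly from 1 library. Control replicate 2 supplied 57.0% of them but 32.4% of the summed size factors, and control replicate 5 supplied 1.72% against 11.3%. In 211 near-empty gains a single control library held all the control reads, and in 110 of these it was replicate 2. Only 5 near-empty gains had reads in 3 or more control libraries.

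In the count test of the recovered reads (edgeR, adjusted p under 0.05), 387 of 387 near-empty gains were called higher in *Tbx5*G125R/+, and 74.0% of all listed regions were. The lowest *Tbx5*G125R/+ library exceeded the highest control library in 340 near-empty gains (87.9%), in 869 of 952 other increased regions (91.3%) and in 73.2% of all listed regions. Both counts restate the rule and the authors' call, and nothing is read from them. When the scaling was replaced by TMM factors (trimmed mean of M values), 131 near-empty gains were called and 206 were without overlap.

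The mean level over the near-empty gains was 20.8 ± 2.31 normalised reads per *Tbx5*G125R/+ library (SD, n = 6) and 0.404 ± 0.299 per control library (SD, n = 5). The *Tbx5*G125R/+ libraries gave 20.5, 20.0, 24.3, 18.8, 22.7 and 18.4 for replicates 1 to 6, and the control libraries 0.418, 0.875, 0.410, 0.240 and 0.0756 for replicates 1 to 5. Each *Tbx5*G125R/+ library lay above each control library in this mean, which the rule for choosing the regions favours. The size factors spanned 0.457 to 2.04 in *Tbx5*G125R/+ libraries and 0.513 to 1.47 in controls, and the reads in all top bins 43183 to 161738 and 27118 to 72442.

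**Figure D2:**
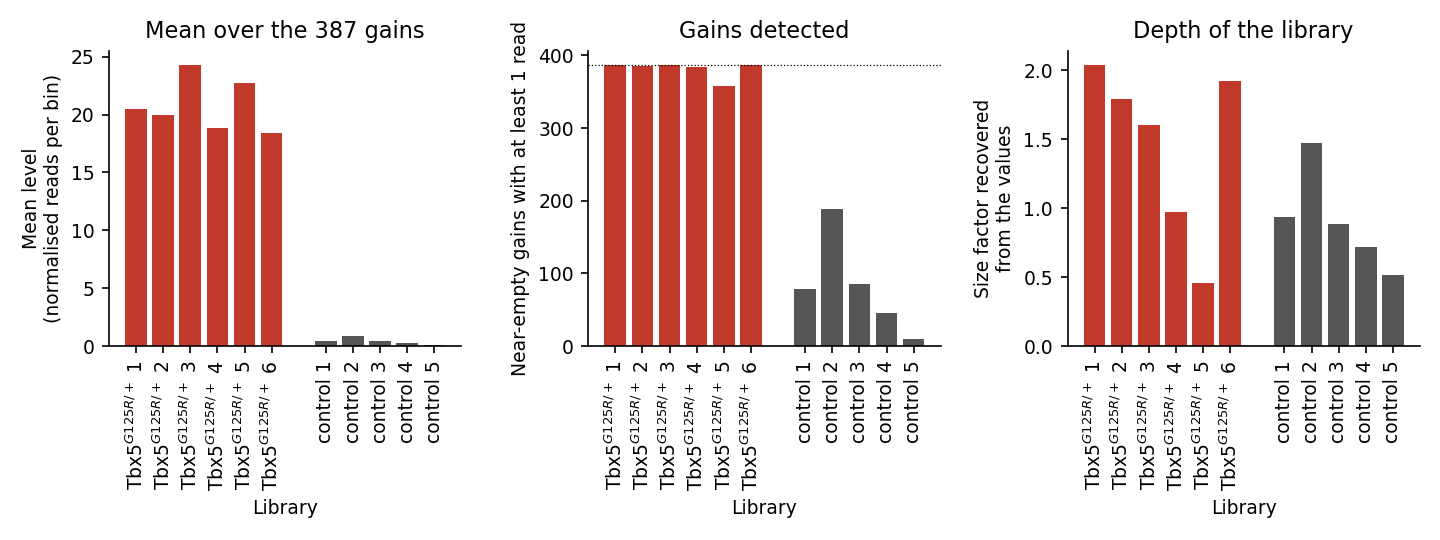
Bars give, for each *Tbx5*G125R/+ and control library, the mean level over the 387 near-empty gains (left), the number of them with at least 1 read (middle; dotted line at 387) and the size factor recovered from the deposited values (right). *Tbx5*G125R/+ libraries detected 358 to 387 of the regions and control libraries 10 to 188, and the lowest *Tbx5*G125R/+ count belonged to replicate 5, which had the smallest size factor of its group.

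Single near-empty gains varied between *Tbx5*G125R/+ libraries. The coefficient of variation (SD over mean, n = 6) had a median of 0.556 (0.117 to 1.17). Counting error alone would give a median of 0.219 at these levels and size factors, and 297 of 387 regions exceeded it more than 2-fold. Other increased regions, which hold more reads, had a median of 0.383, beside 0.15 from counting error alone, so that in both groups the observed median was more than 2-fold that of counting error.

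*Tbx5*G125R/+ replicate 5, the shallowest of its group, was at both extremes. It was the highest library in 101 near-empty gains and had no read in 29, where counting error around the mean of the other 5 libraries would leave 0.20 regions empty. Replicate 4 had no read in 3 near-empty gains and replicate 2 in 1. In all, 33 near-empty gains (8.53%) lacked a read in 1 *Tbx5*G125R/+ library, against 7 of 952 other increased regions (0.735%). Without replicate 5 the median coefficient of variation was 0.504, and 371 near-empty gains were without overlap. Across the 6 *Tbx5*G125R/+ libraries, the mean level over the near-empty gains had a Pearson correlation of -0.28 with the size factor (adjusted permutation p 0.62). Without replicates 4 and 5 it was -0.74. For the other increased regions these correlations were -0.98 (adjusted permutation p 0.0056) and -0.81. The part of depth or duplicate fragments in the spread of single near-empty gains was not tested.

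The steadiest near-empty gains were not the highest. *Dmp1*, an extracellular phosphoprotein of mineralised tissue, had 14.5 to 19.9 normalised reads in *Tbx5*G125R/+ libraries with a median of 16.8 (coefficient of variation 0.117), beside 0, 0.681, 3.37, 0 and 0 in controls. *Adap2*, an ArfGAP, and *Mpeg1*, a pore-forming protein of macrophages, followed with 0.155 and 0.171. These are the lowest of 387 values, and all 3 lie below what counting error alone would give (0.231 at *Dmp1*, 0.227 at *Adap2* and 0.193 at *Mpeg1*). The most variable were *Erbin* (1.17), the region near a listed start of *Dlg2* (1.16) and a region 37.4 kb from *Msc* (1.09). *Tbx5*G125R/+ replicate 5 was the highest library in each of these. Without that library the mean was 15.0 in place of 28.6 at *Erbin*, an adaptor of the receptor ErbB2, and 14.8 in place of 26.2 near *Msc*, a bHLH repressor of transcription.

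The highest near-empty gain lay inside *Tmtc2*, an endoplasmic reticulum protein of a family of O-mannosyltransferases (chr10:105528751-105531500). Its *Tbx5*G125R/+ libraries ranged from 56.4 to 124.9 normalised reads with a median of 79.3, and among the controls replicate 2 held 2.04 and the other 4 held 0. The ratio of these levels, which the rule used, was 126, and its 95% exact counting interval of 43.0 to 613 gives only the precision left by so few control reads. *Tmtc2* held 3 other increased regions, at 21.9, 62.4 and 53.2 in *Tbx5*G125R/+ libraries and 1.09, 11.8 and 4.60 in controls, so this near-empty gain exceeded them in *Tbx5*G125R/+ libraries.

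A region 16.5 kb from *Robo2*, a receptor for Slit guidance proteins, followed (chr16:73874751-73876250). Distances to genes are counted from the top bin of a region. It held 26.3 to 112 normalised reads in *Tbx5*G125R/+ libraries, median 56.0, and a single read in controls, 1.12 in replicate 3. A second near-empty gain lay beside it (chr16:73877751-73878500), with 18.5 ± 11.3 in *Tbx5*G125R/+ libraries and 0 in every control library, and *Tbx5*G125R/+ replicate 5 had no read there.

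*Gdf6*, a ligand of the bone morphogenetic protein family, came next with a 5-kb region over the gene (chr4:9841001-9846000). The *Tbx5*G125R/+ libraries held 21.7 to 91.8 normalised reads with a median of 54.0, and 1 control read was found, in replicate 3. *Ssbp3*, which binds the LIM-domain cofactor Ldb1, held 31.8 to 96.3 in *Tbx5*G125R/+ libraries (median 53.4) and 2.77 in control replicate 4, with 0 in the other controls. *St8sia6*, a sialyltransferase, held 33.9 to 66.7 (median 55.9) against the same single control value. Its spread was the smallest of the 12 highest regions (coefficient of variation 0.275), and in all 3 genes the genotypes were separated.

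Near *Atad1*, an ATPase that pulls misplaced proteins out of the mitochondrial outer membrane, no control library held a read (chr19:32741001-32742000, 1.46 kb from the gene). The *Tbx5*G125R/+ libraries there ran from 27.1 to 78.8 with a median of 55.6, at least 78.6-fold above the floor. It was the highest near-empty gain without a control read.

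The other regions among the 12 highest were less even. A region 4.09 kb from *Anp32a*, a phosphatase inhibitor, ranged from 11.7 to 131 in *Tbx5*G125R/+ libraries, and its mean of 49.8 was 33.5 without replicate 5. It also had one of the highest control means (0.995), with 2.73 and 2.25 in control replicates 2 and 3. *Dock8*, whose loss in humans causes an immunodeficiency, ranged from 8.81 to 98.5, and its mean of 37.4 was 25.2 without replicate 3. *Col6a6*, a collagen VI chain, ranged from 23.0 to 76.0 (median 35.7), with 4.77 in control replicate 2 alone. A region 5.42 kb from *Scamp1*, a membrane carrier protein, ranged from 21.0 to 99.1 (median 32.7), with 0.681 in control replicate 2. A region with no protein-coding gene within 100 kb (chr16:15215251-15216250) ranged from 24.6 to 68.3 (median 37.4), with 1.36 in control replicate 2. The region 50.9 kb from *1700012B07Rik* was the only one of the 12 whose genotypes overlapped, since *Tbx5*G125R/+ replicate 5 had no read and the others reached 79.5.

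**Figure D3:**
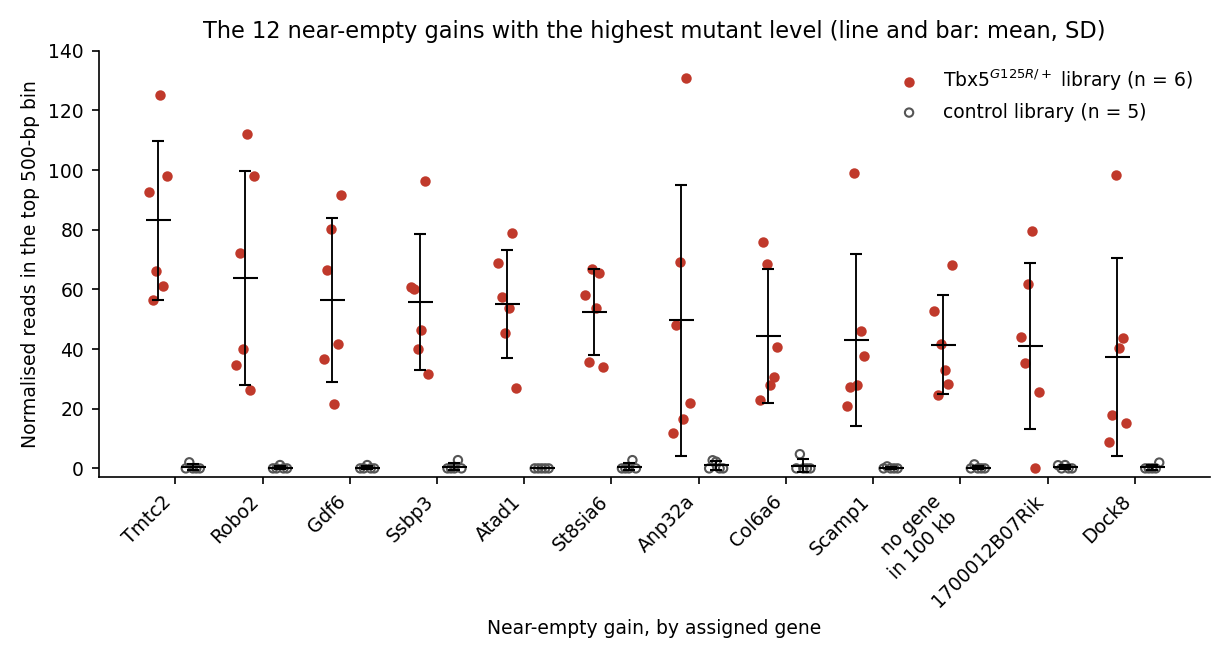
For the 12 near-empty gains with the highest mean level, points show each *Tbx5*G125R/+ library (filled, left) and each control library (open, right) in normalised reads in the top bin, with the mean (line) and SD (bar). Control libraries stay at or below 4.77, whereas *Tbx5*G125R/+ libraries reach 124.9 at *Tmtc2* and 131 near *Anp32a*.

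After *Atad1*, the near-empty gains without any control read that had the highest levels lay at *Ttll5*, a tubulin polyglutamylase (20.6 to 57.0, median 34.1), near *Mgp* (14.5 to 49.0, median 40.9) and in the *Ugt1a* cluster of glucuronosyltransferases (13.1 to 75.4, median 23.2). *Mgp*, matrix Gla protein, is an inhibitor of calcification, and its region was 14.5 kb wide, with the top bin 14.4 kb from the gene. At *Ugt1a* the region lies in sequence that *Ugt1a10*, *Ugt1a9*, *Ugt1a8* and *Ugt1a7c* share, so no single gene can be assigned. The others, with means between 20.9 and 27.5, lay at or near *Nid2*, *Cab39l*, *Galnt9*, *Rbms1*, *Gbp7*, *Cartpt*, *Gpm6b* and *Ptpn14*. All these had every *Tbx5*G125R/+ library above 0. The lowest near-empty gains were also nearly free of control reads. The regions assigned to *Elmo1*, *Kifc3*, *Jcad*, *Arid1b* and *Rexo2* had means of 12.8 to 13.6 in *Tbx5*G125R/+ libraries, and 2 of these 5 regions had 1 control read and 3 had none.

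Near-empty gains were narrow. Their median width was 1750 bp (interquartile range 1000 to 3500), against 3000 bp for other increased and 6000 bp for decreased regions. A width of 1000 bp or less was found in 34.9% of near-empty gains, 7.67% of other increased regions and 6.39% of decreased regions. Wide ones existed: 20 near-empty gains spanned 10 kb or more, the widest 34.0 kb over *Podn* and *Slc1a7*. Width follows from the bins that the authors joined, and the part of the low level in it was not tested.

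Their position relative to genes was close to that of the other increased regions. The top bin lay inside a protein-coding gene in 234 near-empty gains (60.5%, 95% Wilson interval 55.5 to 65.2), 61.8% of other increased regions and 74.8% of decreased regions. No protein-coding gene lay within 100 kb of 35 near-empty gains (9.04%), against 12.1% of other increased and 7.67% of decreased regions. The genes that held a near-empty gain had a median length of 119 kb, near those of other increased (107 kb) and decreased regions (127 kb). The median over all protein-coding genes was 17.1 kb. A longer gene is more likely to hold a bin placed anywhere, so the difference from all genes is not read as a result. A listed long noncoding RNA gene overlapped the top bin of 32 near-empty gains (8.27%), and 11.3% of other increased regions. Every chromosome listed held some, from 19.6% of the increased regions of chromosome 8 to 38.1% of the 21 on chromosome X.

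**Figure D4:**
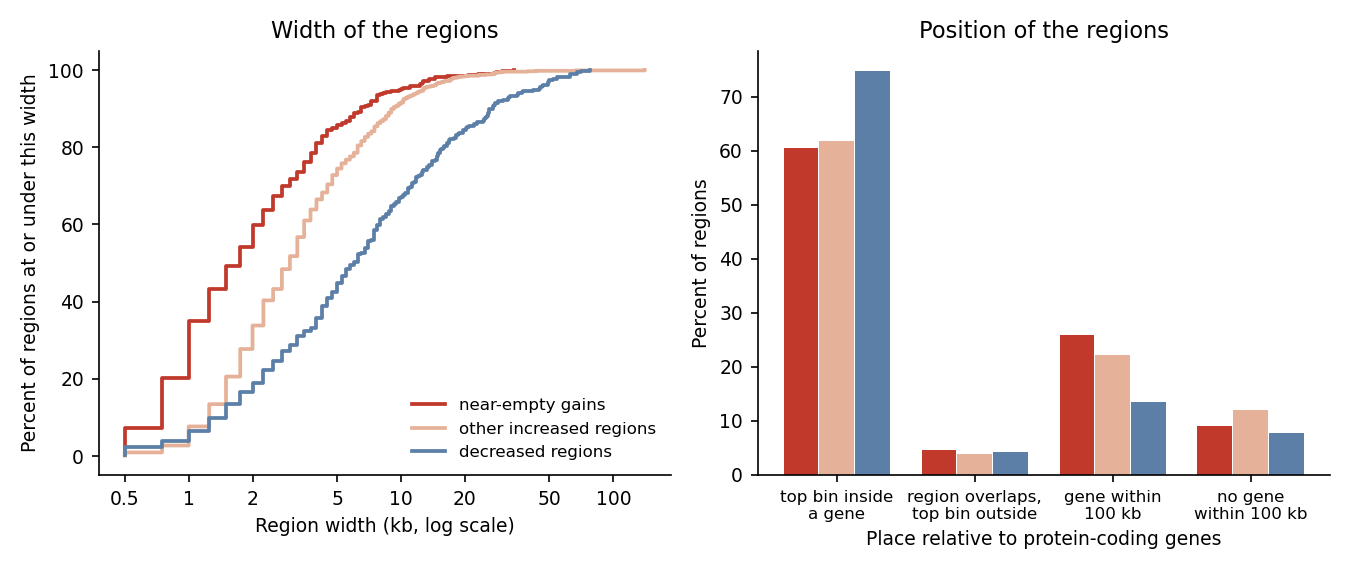
Left, the cumulative percentage of regions against their width in kb (logarithmic axis); right, the percentage of regions by place relative to protein-coding genes, for the 387 near-empty gains, the 952 other increased and the 313 decreased regions. The width curve of the near-empty gains lies to the left of the others up to about 10 kb, where 5.17% of them remain, and the bars for near-empty gains and other increased regions are of similar height.

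Another listed region lay within 12.5 kb of 38 near-empty gains (9.82%). The share was 7.77% for other increased regions, 7.67% for decreased regions and 8.23% over all listed regions, so that of the near-empty gains was near the background. An increased region outside the group was within that distance of 24, another near-empty gain of 18, and a decreased region of 0. At *Iqgap2*, a scaffold protein of the actin cytoskeleton, near-empty gains with 19.6 and 21.6 normalised reads in *Tbx5*G125R/+ libraries, beside 0 and 0.675 in controls, lay within 12.5 kb of each other. The gene held 5 other increased regions, all beyond that distance, the highest at 691 in *Tbx5*G125R/+ libraries and 137 in controls. At 57.8 and 58.8 kb from *Lrrc55*, near-empty gains of 24.4 and 18.9 in *Tbx5*G125R/+ libraries lay within 12.5 kb of an other increased region at 631 in *Tbx5*G125R/+ libraries and 223 in controls, and the first of these was 15.7 without *Tbx5*G125R/+ replicate 5. *Galnt9*, an enzyme that starts O-glycosylation, had 24.4 in *Tbx5*G125R/+ libraries and 0 in controls at its near-empty gain. Next to it lay other increased regions at 41.2 and 59.3 in *Tbx5*G125R/+ libraries and 4.35 and 1.12 in controls. A further other increased region assigned to *Galnt9*, beyond 12.5 kb, had 451 in *Tbx5*G125R/+ libraries and 26.3 in controls.

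Assigned genes numbered 328, with genes that share a region counted under their joint name. Of these, 60 had a further listed region outside the group, which was increased for 57 and decreased for 5. The decreased ones were at *Arhgap26*, *Camk1d*, *Nid2*, *Sgcd* and *Ube2e3*, named after their values were seen. At *Sgcd*, delta-sarcoglycan of the muscle membrane, the near-empty gain averaged 19.0 ± 7.94 in *Tbx5*G125R/+ libraries and 0.273 ± 0.609 in controls, whereas another region of the gene averaged 63.1 ± 24.1 in *Tbx5*G125R/+ libraries and 139 ± 31.6 in controls. *Nid2*, a basement membrane nidogen, likewise had a near-empty gain 27.8 kb away at 27.5 ± 12.8 and 0, and a decreased region inside the gene at 17.3 ± 8.73 in *Tbx5*G125R/+ libraries and 69.0 ± 35.2 in controls.

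Near-empty gains were spread over many genes, and 22 genes had more than 1 assigned to them. A region assigned to several genes was counted under their joint name. *Erbin* is therefore not among the 22, although it had 1 region of its own and 1 shared with *D130037M23Rik*. *Maml2*, a coactivator of Notch, held 3 within its body and no other listed region, with means of 33.1, 21.2 and 15.2 in *Tbx5*G125R/+ libraries and 0.273, 0.634 and 0.450 in controls. *Steap4*, a metalloreductase, had 3 in or near it (23.2, 18.2 and 20.9 in *Tbx5*G125R/+ libraries, 0.213, 0 and 0.915 in controls) and 1 other increased region nearby. The 20 genes with 2 were *Adamts12*, *Atg4c*, *Cgnl1*, *Dlg2*, *Enc1*, *Iqgap2*, *Jcad*, *Lrrc55*, *Lum*, *Nav1*, *Negr1*, *Nrgn*, *Robo2*, *Sash1*, *Scamp1*, *Sema6d*, *Senp7*, *Sox5*, *Tcf4* and *Wwp1*. Among these, *Tcf4*, a bHLH transcription factor, had 15.8 at both of its near-empty gains, with 0.409 and 0.136 in controls.

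By gene list, 47 of the 387 near-empty gains were assigned to a gene of the 17 lists searched. Near-empty gains were 23.4% of all listed regions, and the shares below are counts over few regions, read as a description.

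Extracellular matrix genes had the most, 12 of their 29 listed regions (41.4%), with 15 other increased and 2 decreased. Beside *Mgp* and *Nid2*, a region near *Lum*, a collagen-binding proteoglycan, held 10.9 to 33.0 normalised reads in *Tbx5*G125R/+ libraries (median 25.3) and 3.20, 0, 0, 1.38 and 0 in controls. *Adamts5*, a protease of proteoglycans, held 9.91 to 45.9 (median 21.6) and 3.41 in control replicate 2 alone. The others lay at a second place near *Lum*, in *Lama2*, *Col14a1* and *Col8a1*, in and 1.27 kb from *Adamts12*, 50.6 kb from *Hmcn1* and 63.6 kb from *Adamts6*, with means of 15.6 to 21.0.

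Guidance and adhesion genes had 8 of 38 (21.1%). Beside *Robo2*, *Sema6d*, a transmembrane semaphorin, held near-empty gains of 26.7 ± 19.7 and 21.1 ± 8.72 in *Tbx5*G125R/+ libraries, with 0.954 and 0.675 in controls. *Ntn4*, a netrin, had 20.8 ± 9.82 in *Tbx5*G125R/+ libraries and 0.225 in controls. *Flrt2* and *Negr1* supplied the remaining regions. Neuronal and synaptic genes had 7 of 21 (33.3%), in *Dlg2*, *Ptprd*, *Celf2* and *Syn3*, 1.23 kb from *Celf4* and 84.0 kb from *Grin2b*, with means from 15.8 to 21.8. *Ptprd*, a receptor phosphatase of synapse formation, was steady, at 14.4 to 27.4 in *Tbx5*G125R/+ libraries (median 20.4) and 0 reads in controls.

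Secreted growth factors and their receptors had 6 of 24 listed regions. Among ligands, *Gdf6* stood at 56.4 in *Tbx5*G125R/+ libraries and the rest were lower. A region 0.993 kb from the gene body of *Tgfb3*, a transforming growth factor beta, held 6.23 to 37.4 (median 16.6), and controls had 0 reads. No listed start lay within 1 kb of its top bin. *Fgf2*, basic fibroblast growth factor, held 10.1 to 29.2 (median 16.9), with 2.73 in control replicate 2, and it had 2 other increased regions at 53.6 and 34.2. The region 97.3 kb from *Gdf10* had a *Tbx5*G125R/+ library without a read. Among receptors, *Acvr1*, a type I receptor for bone morphogenetic proteins and activins, held 3.74 to 27.4 (median 16.4) and no control read, and a region 98.3 kb from *Fzd1*, a Wnt receptor, averaged 18.1 ± 5.57 and 0.409.

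Ion channel genes had 5 of 17 (29.4%), and 4 of the 5 were potassium channels. *Ano6*, a calcium-activated scramblase and channel, had the highest level, 20.6 to 58.6 in *Tbx5*G125R/+ libraries (median 33.3) and 2.13 and 0.681 in control replicates 1 and 2. *Kcnd2*, the Kv4.2 subunit of the transient outward current, held 5.59 to 40.2 (median 22.6) and 1 control read. *Kcnk2*, *Kcnt2*, a sodium-activated channel, and *Kcnc2*, the Kv3.2 subunit, averaged 16.2, 15.8 and 15.2, and no control library had a read at any of these 3. At *Kcnt2* a *Tbx5*G125R/+ library had none either.

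Cardiac transcription factors had 2 of 29 listed regions (6.90%), both in *Sox5*, with 20.6 ± 6.97 and 19.7 ± 11.6 in *Tbx5*G125R/+ libraries and 0.681 and 0.273 in controls. Sarcomere and costamere genes had 2 of 11 (18.2%), at *Vcl*, vinculin (21.1 ± 9.16 and 0.273 ± 0.609), and *Sgcd*, and the other 9 were decreased. Calcium handling genes had 1 of 9, at *Asph*, the locus of junctin and aspartate beta-hydroxylase, which held 17.5 to 48.4 in *Tbx5*G125R/+ libraries (median 25.6) and 0, 0.681, 1.12, 1.38 and 0 in controls. Adrenergic, muscarinic and cyclic nucleotide signalling had 2 of 25, at *Adcy1*, a calcium-stimulated adenylyl cyclase (0 to 38.1 in *Tbx5*G125R/+ libraries, median 18.2, and 0 in controls), and *Rgs5* (means of 16.3 and 0.550). Odorant, vomeronasal and taste receptors had 0 of 3.

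**Figure D5:**
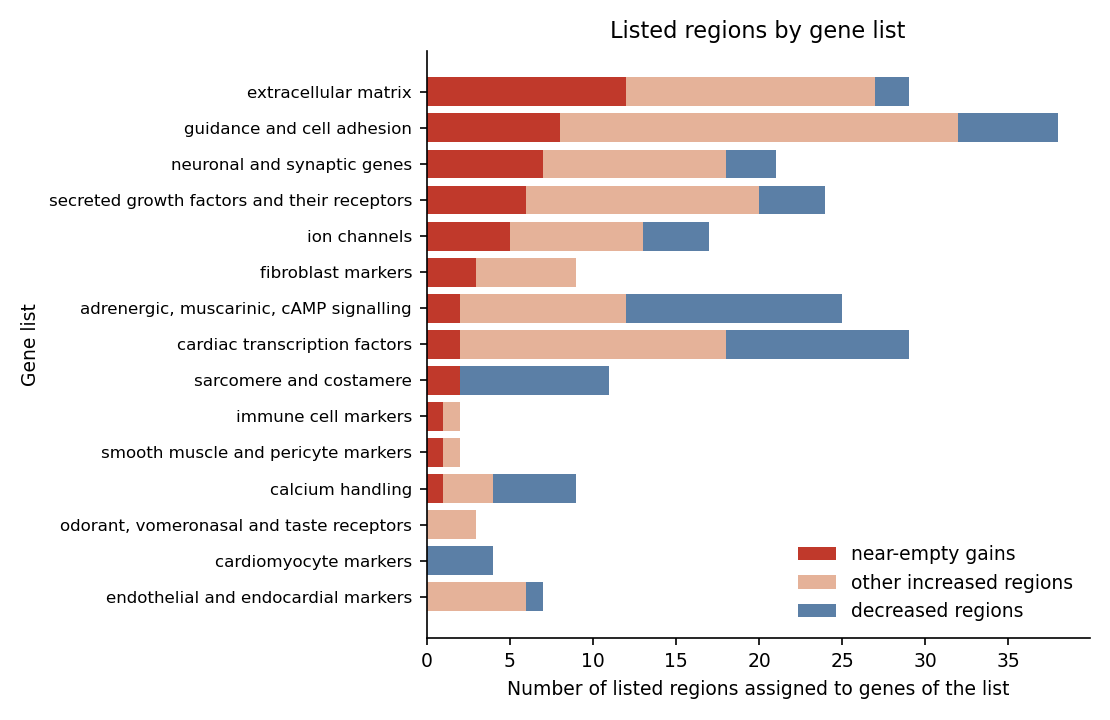
Bars count the listed regions assigned to genes of each list, split into near-empty gains, other increased and decreased regions, for the lists with at least 1 listed region. Near-empty gains number 12 of 29 for extracellular matrix genes, 2 of 29 for cardiac transcription factors and 0 of 4 for cardiomyocyte markers.

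Markers of the sorted cell type and of others were read in the same table, which holds called regions only. Of 12 cardiomyocyte markers, *Actc1*, *Actn2* and *Ryr2* had listed regions, all 4 of them decreased (summed level 280 to 367 per *Tbx5*G125R/+ library and 756 to 1134 per control library), and *Tnnt2*, *Myh6* and *Ttn* had none, so the label could not be checked further. Of 14 fibroblast markers 7 had listed regions, with a summed level of 294 to 569 per *Tbx5*G125R/+ library and 9.75 to 69.2 per control library. Of their 9 listed regions 3 were near-empty gains, at *Ddr2* and *Lum*, with 45.3 to 120 and 0 to 5.33, whereas *Col1a1*, *Col3a1* and *Tcf21* had no listed region. Of 13 immune markers, *Mrc1* and *F13a1* had a listed region (27.9 to 61.0 per *Tbx5*G125R/+ library, 0 to 6.13 per control library), and *Ptprc*, *Csf1r* and *Adgre1* had none. *Mrc1*, the macrophage mannose receptor, was a near-empty gain at 11.7 to 32.3 in *Tbx5*G125R/+ libraries (median 21.7), with 4.09 in control replicate 2 alone. Of 17 endothelial markers, *Cdh5*, *Erg* and *Kdr* had 7 listed regions, none of them a near-empty gain (594 to 871 and 164 to 408). Of 11 smooth muscle and pericyte markers, *Rgs5* and *Lmod1* had 1 each (53.7 to 68.7 and 4.50 to 21.5), whereas *Myh11* and *Acta2* had none. Of 13 neural and 11 epicardial and adipocyte markers none had a listed region. The part of other cell types in the near-empty gains was not tested.

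At the control limit, the division followed no gap in the values. The near-empty gains nearest to it were 73.1 kb from *Tpcn2* and 4.09 kb from *Anp32a* (control mean 0.995 each) and at *Jup* (0.993), with *Tbx5*G125R/+ means of 27.9, 49.8 and 18.8. The increased regions just outside it were at *Kcnt2* (1.00), *Adamtsl3* (1.03) and *Eva1c* (1.04), with *Tbx5*G125R/+ means of 19.6, 22.3 and 21.5. *Kcnt2* thus had 1 region on either side.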

How the data were processed

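The deposited table held 1652 regions from 11 libraries (6 *Tbx5*G125R/+, 5 control). Per the labels, the authors used BWA, bedtools, DESeq2 and build mm10, with versions not given in the sources used here. The deposited signal gives, for the top 500-bp bin, reads divided by a size factor of each library. The deposited log2 fold changes and adjusted p-values are the authors' own comparison and were not used, except to check that every adjusted p lay under 0.05. The authors picked the top bin for its significance, so its level is not that of the whole region. Regions that they did not call were not analysed here. The near-empty gains and the gene lists were chosen with earlier results of these data known, and 1 gene list is not reported here.

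Whole reads were recovered for 100.0% of values (tolerance 0.05 reads). They were tested with the deposited scaling in edgeR 4.0.16 (quasi-likelihood, R 4.3.3), with Benjamini-Hochberg adjustment over 126854 tests, the highest region number. The fit was also run on simulated reads for the 1652 bins, with the same set dispersion for every bin and adjustment over these bins alone. It called 28 of 100 bins changed 2-fold, 100 of 100 changed 8-fold and 10 of 1452 unchanged bins. Recovery under adjustment over 126854 tests was not simulated. DESeq2 1.42.0, TMM factors, a low-count filter and single left-out libraries were alternatives. Intervals are 95%.

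A region was assigned to the RefSeq protein-coding gene (GRCm38.p6) that its top bin, or else the region, overlapped, or to the nearest within 100 kb. Named regions were the 12 highest near-empty gains, the 12 highest without a control read, genes with 2 or more, up to 4 per gene list with values, up to 10 within 1 kb of a start, those next to the limit, the 5 lowest, and the 3 most and 3 least variable.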

Additional observations from a re-analysis of the deposited data

Results flagged for a closer look

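A library was looked at again where its gap to the nearest other library, divided by the range of the set, exceeded Dixon's critical value. That value was 0.625 for 6 libraries and 0.71 for 5. Of 105 sets of values, 9 did so, and chance alone flags about 1 in 20. Neither the mean level over the near-empty gains nor their share of reads had such a library in either genotype. Control values of single regions were not tested because they rest on 7 reads or fewer.

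*Tbx5*G125R/+ replicate 5 stood above the others at *Erbin* (96.3, the others 6.78 to 19.9) and near *Msc* (83.1, the others 4.13 to 23.0). It also did so near a listed start of *Dlg2* (72.2, the others 4.69 to 21.2) and at 1 region of *Enc1* (54.7, the others 5.16 to 23.1). Replicate 3 stood above the others near *Scamp1* (99.1, the others 21.0 to 45.9) and at the *Ugt1a* cluster (75.4, the others 13.1 to 31.0). Replicate 4 had 0 reads at the region inside *Scamp1*, where the others held 21.0 to 32.8. Replicate 2 was highest at *Adap2* (22.9, the others 15.3 to 17.5) and replicate 1 at 1 region of *Tcf4* (24.9, the others 11.8 to 15.6). Without its highest library the *Tbx5*G125R/+ mean changed by more than 1.5-fold in 10 of the 387 near-empty gains.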

How the results depend on the processing

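TMM factors, computed on listed regions of which most increased, moved the median log2 difference over all listed regions by -1.70. With them 131 near-empty gains were called in place of 387, 206 in place of 340 were without overlap, their median *Tbx5*G125R/+ level was 14.1 in place of 18.9, 185 regions met the rule, and over all listed regions 146 were called higher and 313 lower in place of 1223 and 214. The low-count filter of edgeR kept 244 near-empty gains, and all 244 were called. A control limit of 0.5 gave 237 regions, a limit of 2 gave 617, and the median of the controls in place of their mean gave 642. DESeq2 and adjustment over the table alone called all 387. Leaving out each library in turn gave 387 calls every time, 341 to 371 regions without overlap, a median level of 18.3 to 19.5, and 347 to 455 regions under the rule, the most without control replicate 2. The share inside a gene ranged from 60.3% to 65.1%. Replicate numbers did not pair the libraries (correlations of same-numbered deviations -0.145 to -0.0165), and with a replicate block 364 near-empty gains were called, and 700 in place of 1223 of all listed regions. Repeats with a stricter limit on the authors' adjusted p, or with the direction of their fold change, were not run, since those columns were left unused, and motifs in the top bins were not analysed here. Control counts of 0 to 7 reads limit every ratio.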

Other observations

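Several near-empty gains lay in genes known from macrophages and other leukocytes and outside the marker lists. They were picked after their values were seen, so their number has no meaning as a count. *Spi1*, which encodes the myeloid transcription factor PU.1, held 7.82 to 56.9 normalised reads in *Tbx5*G125R/+ libraries (median 18.2), and 4.77 in control replicate 2 with 0 in the other controls. *Mpeg1* held 20.6 to 29.6 in *Tbx5*G125R/+ libraries (median 22.9) and 1 control read, and it was among the least variable near-empty gains. *Pram1*, an adaptor protein of myeloid cells, held 4.17 to 33.7 (median 11.5) and no control read. *Cd37* and *Fermt3* are described with the promoters. The immune markers *Ptprc*, *Csf1r*, *Cd68*, *C1qa* and *Itgam* had no listed region, and the cell type behind these values was not tested.

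The widest near-empty gains formed another set seen only on inspection. *Nfix*, a transcription factor (29.8 kb), *Ski*, a repressor of transforming growth factor beta signalling (28.0 kb), *Tpst2*, a tyrosine sulfotransferase (27.5 kb), and *Steap3*, a ferrireductase (23.0 kb), had *Tbx5*G125R/+ means of 22.8, 23.6, 16.2 and 20.2 in their top bins, beside 0.818, 0.426, 0 and 0.681 in controls. The level in the rest of these regions was not analysed here.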
